A study of Mus musculus with 19 samples.

Results

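The germinal centre adaptor Gcsam and the genes it is linked to in Syk and RhoA signalling were followed at the RNA level in mouse spleen. The set of 9 genes (Gcsam, Syk, Grb2, Arhgef1, Arhgef11, Arhgef12, Rhoa, Rock1 and Rock2) was chosen by symbol, and a probe set counted only where its annotation named exactly 1 of these symbols. Of the 9 genes, 8 were measured among the 22180 genes of the array with a single symbol. Rock2 had no such probe set and was not analysed here. For Rhoa, which had 3 probe sets, the one with the highest mean over all arrays stood for the gene. The other 7 measured genes had 1 probe set each.

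RNA from whole spleens of 19 mice was hybridised to Affymetrix arrays, 1 array per mouse. Of these mice, 16 carried a conditional human HGAL transgene at the Rosa26 locus together with a Cre driver. There were 4 tumour-bearing Rosa26-HGAL+Aid-Cre spleens, 5 tumour-bearing Rosa26-HGAL+Mb1-Cre spleens, 4 tumour-bearing Rosa26-HGAL+Sca1-Cre spleens, 3 Rosa26-HGAL+Sca1-Cre spleens taken before tumours (pre-tumour) and 3 spleens of wild type control mice. The Aid-Cre driver acts in activated B cells. Mb1-Cre is named for the B cell receptor chain Cd79a, and Sca1-Cre for Ly6a (Sca1), which marks blood stem cells and their early progeny. The labels used here give no age, strain or sex and do not say whether the wild type mice carried a Cre driver. They describe the tissue as total spleen, so every array mixes tumour cells with the other cells of the organ. Arrays with signal of Y-linked genes numbered 3 of 3 among wild type and 1 of 3 among pre-tumour spleens, and among tumours 1 of 4 with Aid-Cre, 4 of 5 with Mb1-Cre and 2 of 4 with Sca1-Cre.

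HGAL is an adaptor made by germinal centre B cells, and Gcsam is its mouse counterpart. As background, the human protein is phosphorylated after the B cell receptor is engaged, binds the kinase Syk and raises its activity, and associates with the adaptor Grb2, which couples receptors to Ras. It also interacts with the exchange factors PDZ-RhoGEF (Arhgef11) and LARG (Arhgef12), which load the small GTPase RhoA with GTP. RhoA then activates the kinases Rock1 and Rock2, which act on myosin and restrain the movement of the cell. Arhgef1, also called Lsc, is the related exchange factor by which receptors coupled to G12 and G13 proteins reach RhoA in lymphocytes. No test was made of whether human HGAL RNA binds the Gcsam probe set, so its values are not a measure of the transgene.

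The promoters of Gcsam and Arhgef12 are shown because these genes varied most between arrays, Gcsam through 1 spleen and Arhgef12 throughout. Each window holds the 250 bases upstream of the RefSeq transcription start in the mouse build GRCm38.p6, read 5′ to 3′ on the strand of the gene. The Gcsam window lies on the plus strand at chr16:45610190-45610439 and the Arhgef12 window on the minus strand at chr9:43105719-43105968. Capitals mark a match to a searched motif.
Gcsam: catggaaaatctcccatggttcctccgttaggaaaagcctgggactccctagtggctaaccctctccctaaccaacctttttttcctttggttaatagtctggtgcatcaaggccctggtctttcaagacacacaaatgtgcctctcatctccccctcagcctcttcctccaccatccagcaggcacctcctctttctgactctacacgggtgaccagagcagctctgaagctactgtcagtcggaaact
Arhgef12: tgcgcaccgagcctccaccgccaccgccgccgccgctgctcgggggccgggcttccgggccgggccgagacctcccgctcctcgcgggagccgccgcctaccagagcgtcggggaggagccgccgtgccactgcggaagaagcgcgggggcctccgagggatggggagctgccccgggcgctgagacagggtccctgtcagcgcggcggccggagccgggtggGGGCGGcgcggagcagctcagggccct

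The windows of 8 of the 9 genes, all but Rock1, were searched on both strands for 6 motifs, none of which contains another. The share of all 32851 RefSeq promoter windows of this length that held each motif was 9.99% for AGATAA and 7.94% for TGATAA (both bound by GATA factors), 1.60% for the octamer ATGCAAAT, 3.20% for the CACCC box CCACACCC, 32.7% for the GC box GGGCGG and 12.4% for the TATA box TATAAA. The Gcsam window held none of them, and the Arhgef12 window held a GC box. GC boxes also lay in windows of Arhgef1, Arhgef11, Rhoa and Rock2, while Syk had a TGATAA match and Grb2 a TATAAA match. Rhoa, Syk and Grb2 each had another window with no match, and Arhgef1 had another with a GC box. The shares above count windows rather than genes. The GC content was 51.6% in the Gcsam window and 79.6% in the Arhgef12 window, against a median of 52.4% over all windows. A match describes letters in these windows and is not a measured site.

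Expression values are on the log2 scale, where a difference of 1 is a 2-fold difference. Values of different genes are not set against each other, because each probe set has its own brightness. The median of an array lay between 5.23 and 5.40, and its 40th percentile, taken as the edge of background, between 4.72 and 4.90. A gene was called at a limma adjusted p under 0.05 (Benjamini-Hochberg over all 22180 genes). Of the 8 measured genes, 0 were called in limma's F-test over the 5 groups, against 10 genes (0.0451%) of all tested. At an unadjusted p under 0.05 the F-test passed 2 of the 8, Grb2 and Rhoa, against 15.2% of all genes.

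None of the 8 genes was called by limma in any of 9 comparisons between groups either, and few genes of the array were. The share of all genes called was 0.018% (4 genes) for all tumours against wild type, 0.018% for Aid-Cre tumours, 0% for Mb1-Cre tumours, 0.0406% for Sca1-Cre tumours and 0.00451% for pre-tumour spleens, each against wild type. Among the HGAL groups it was 0% for Sca1-Cre tumour against pre-tumour, 0.0451% for Aid-Cre against Mb1-Cre tumours, 0.0451% for Aid-Cre against Sca1-Cre tumours and 0.0406% for Mb1-Cre against Sca1-Cre tumours. Without Aid-Cre tumour replicate 3, limma called 229 genes between Aid-Cre and Sca1-Cre tumours and 121 between Mb1-Cre and Sca1-Cre tumours, against 10 and 9 with all arrays, and none of them was one of the 8. The count of the 8 genes at an unadjusted limma p under 0.05 was 3 for all tumours against wild type (8.93% of all genes), 1 for Aid-Cre (8.30%), 2 for Mb1-Cre (11.3%), 3 for Sca1-Cre tumours (11.4%) and 1 for pre-tumour spleens (5.47%). It was 0 for Sca1-Cre tumour against pre-tumour (5.34%), 0 for Aid-Cre against Mb1-Cre (8.76%), 2 for Aid-Cre against Sca1-Cre (13.6%) and 2 for Mb1-Cre against Sca1-Cre tumours (17.6%). The comparisons against wild type share the same 3 control spleens. What follows gives levels and fitted differences that did not pass the test. After a fitted difference, ± gives its standard error (SE) where one is shown, and after a mean it gives the SD.

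**Figure D1:**
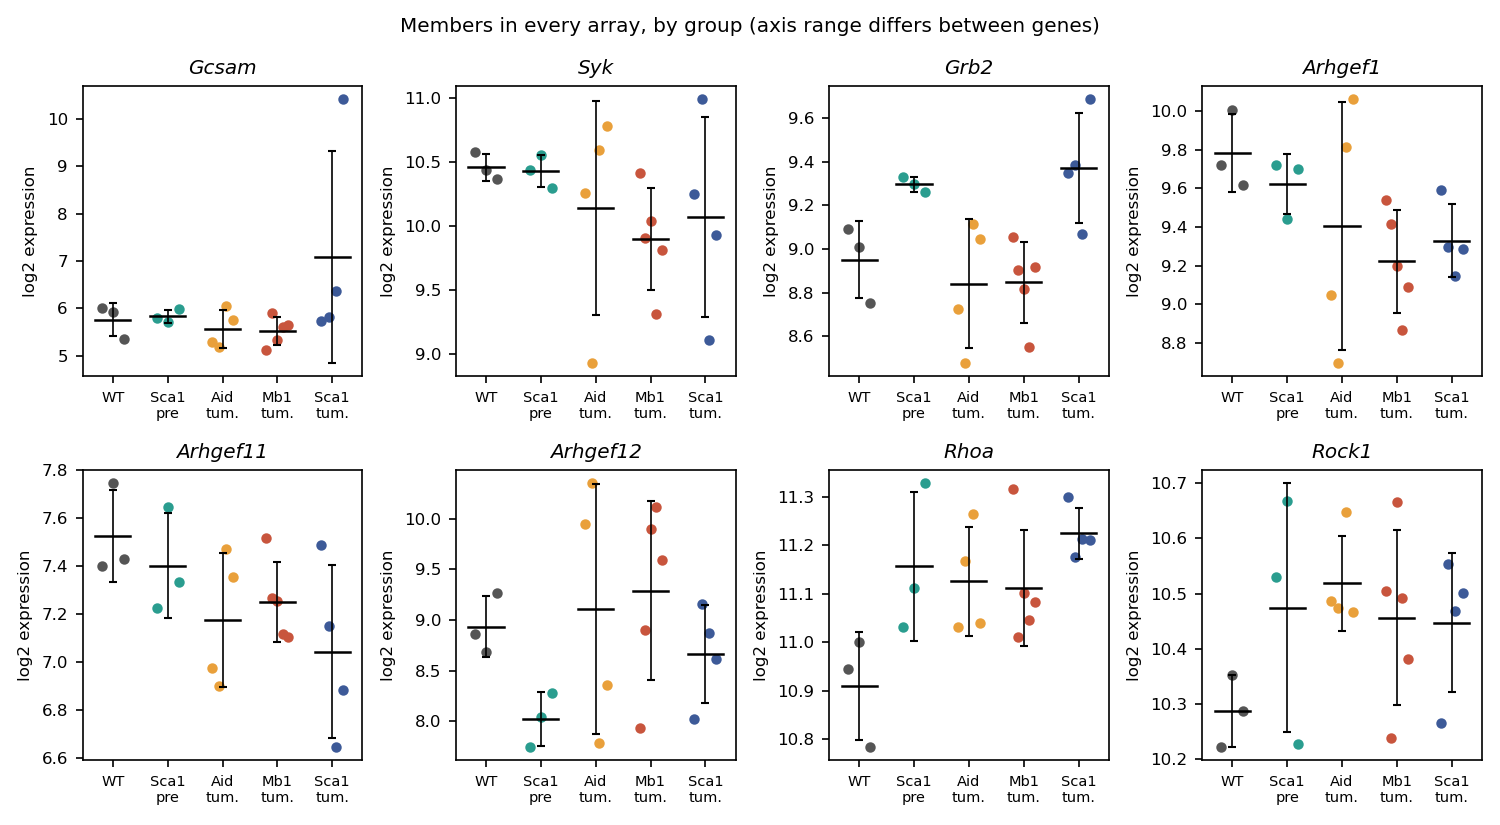
Log2 expression of the 8 measured genes (vertical axes, with a range of its own for each gene) in each of the 19 spleens, by group (horizontal axes); points are spleens, horizontal bars are group means and error bars are ± 1 SD. For Gcsam 1 Sca1-Cre tumour stands at 10.41, and for Rhoa all 16 HGAL spleens lie above the 3 wild type spleens.

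Gcsam, the adaptor itself, read between 5.12 and 6.38 in 18 of the 19 spleens, where the median of an array over all probe sets lay between 5.23 and 5.40, and was high in 1. Its SD over all arrays was 1.13, above that of 99.1% of genes. It read 6.02, 5.92 and 5.36 in the wild type spleens and 5.80, 5.71 and 5.98 in the pre-tumour spleens. The Aid-Cre tumours had 5.29, 5.19, 6.04 and 5.77, and the Mb1-Cre tumours had 5.12, 5.90, 5.34, 5.60 and 5.65. These 4 groups overlapped one another, with means of 5.76 ± 0.35 (SD, n = 3) in wild type, 5.83 ± 0.14 (n = 3) in pre-tumour, 5.57 ± 0.40 (n = 4) in Aid-Cre and 5.52 ± 0.30 (n = 5) in Mb1-Cre spleens.

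The Sca1-Cre tumours had Gcsam values of 5.74, 5.82, 6.38 and 10.41. The highest, replicate 4, stood 4.03 above the next array (16.4-fold) and 4.64 above the wild type mean (25.0-fold). Of 22180 genes, 4 had a larger gap between that array and the highest of the other 18. Without replicate 4 the group mean went from 7.09 ± 2.23 (SD, n = 4) to 5.98 ± 0.35 (n = 3). That lay above the means of the other groups (5.52 to 5.83) but within the range of their single spleens (5.12 to 6.04). The spleen at 6.38 lay above every spleen of the other groups. The fitted difference between Sca1-Cre tumours and wild type went from 1.32 ± 0.76 (SE, limma adjusted p = 0.545) to 0.21 (limma adjusted p = 0.874) without replicate 4. Relative to Sca1-Cre tumours the difference was -1.51 ± 0.70 in Aid-Cre (limma adjusted p = 0.358) and -1.56 ± 0.66 in Mb1-Cre tumours (limma adjusted p = 0.241), and both values include the same array.

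The germinal centre program was read in that spleen from a list of 11 marker genes, of which 9 were analysed here. All 9 were highest in Sca1-Cre tumour replicate 4, as were 11.3% of all genes, and 6 of the 9 were highest by more than 1, as were 0.464% of all genes. Rgs13, a regulator of G protein signalling in germinal centre B cells, read 10.38 there against at most 5.00 in the other 18 spleens. Mybl1, a transcription factor of dividing centroblasts, read 10.60 against at most 6.55, and Nuggc, a nuclear GTPase of germinal centre cells, read 7.31 against at most 4.97. Bcl6, the master repressor of the program, read 9.70 against at most 8.73, and S1pr2, the receptor that holds B cells in the follicle through G13 and Arhgef1, read 9.37 against at most 8.08. The other 4 were Neil1 (9.59 against 7.87), Fas (9.41 against 8.31), Efnb1 (7.02 against 6.18) and Plxnb2 (8.95 against 8.87), where the gap was smallest. No gene of this list was called by limma in any comparison.

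Other lists in the same spleen moved less. In Sca1-Cre tumour replicate 4 the mean of the germinal centre list was 2.73 higher than in wild type, while that of 18 B cell identity genes stood at -0.51 and that of 9 mitosis genes at 0.78. The erythroid list mean was -1.59, the macrophage list -0.57 and the T cell list 0.16, each against wild type. In the other 3 Sca1-Cre tumours the germinal centre list lay closer to wild type, from 0.15 to 0.23. The part of cell makeup in the Gcsam value was not tested. This spleen was singled out after its values were seen.

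**Figure D2:**
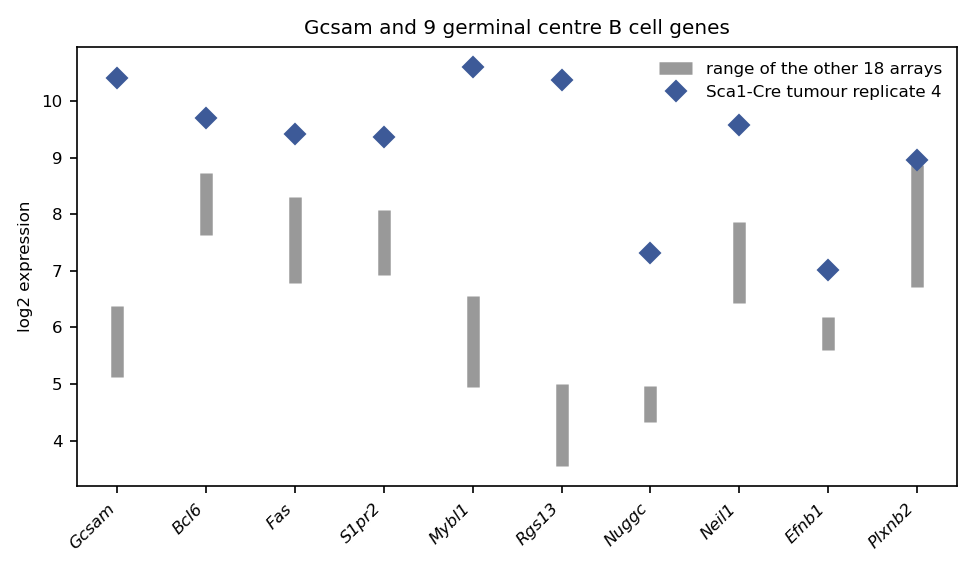
Log2 expression (vertical axis) of Gcsam and the 9 measured germinal centre genes (horizontal axis); diamonds are Sca1-Cre tumour replicate 4 and grey bars span the other 18 spleens, and heights are not comparable between genes. Every diamond lies above its bar, by 4.03 for Gcsam and least for Plxnb2.

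The genes whose profile over the 19 spleens was most like that of Gcsam were 3830403N18Rik, Rassf6, Rgs13, Platr14 and Pde1c, with Pearson r of 0.97, 0.97, 0.96, 0.96 and 0.96. All 5 were highest in Sca1-Cre tumour replicate 4. Without that array and Mb1-Cre tumour replicate 1, the r values were 0.73, 0.34, 0.51, 0.24 and 0.22, so that of 3830403N18Rik stayed the highest and the other 4 depended more on these 2 spleens. Outside replicate 4, however, 3830403N18Rik, Rassf6, Platr14 and Pde1c read at most 4.15, 4.50, 4.24 and 4.35, below the edge of background (4.72 to 4.90). Rgs13 read from 3.54 to 5.00 outside replicate 4. Its means were 4.25 in wild type, 4.32 in pre-tumour, 4.23 in Aid-Cre and 3.79 in Mb1-Cre spleens, also below that edge. Without these 2 spleens, the r values of the other 4 genes therefore rest on values under background, and that of Rgs13 on values around or under its edge. The mean of the germinal centre list likewise correlated with Gcsam at r = 0.97 over all arrays, with Spearman coefficient = 0.55, and at r = 0.42 without Sca1-Cre tumour replicate 4 and Aid-Cre tumour replicate 2. These correlations, and those given below for other genes, are descriptions over arrays that share 1 normalization.

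Syk, the kinase that HGAL binds, was high and even in spleens without tumours and spread widely in tumours. Wild type spleens read 10.58, 10.43 and 10.37, and pre-tumour spleens read 10.44, 10.55 and 10.30. The Aid-Cre tumours had 10.26, 8.93, 10.59 and 10.78, the Mb1-Cre tumours 10.42, 9.91, 10.04, 9.32 and 9.82, and the Sca1-Cre tumours 10.25, 10.99, 9.12 and 9.93. The SD over all arrays was 0.549, above that of 92.2% of genes. The lowest values were those of Aid-Cre tumour replicate 2 and Sca1-Cre tumour replicate 3, and each tumour group overlapped wild type. Group means were 10.46 ± 0.11 (SD, n = 3) in wild type, 10.43 ± 0.13 (n = 3) in pre-tumour, 10.14 ± 0.83 (n = 4) in Aid-Cre, 9.90 ± 0.40 (n = 5) in Mb1-Cre and 10.07 ± 0.78 (n = 4) in Sca1-Cre tumours. Fitted differences from wild type were -0.32 ± 0.41 for Aid-Cre, -0.56 ± 0.39 for Mb1-Cre, -0.39 ± 0.41 for Sca1-Cre tumours and -0.03 ± 0.43 for pre-tumour spleens, with limma adjusted p from 0.596 to 0.999. The 95% interval for all tumours against wild type, -1.14 to 0.30, covers both a fall by more than 1 and no change.

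B cell genes varied with Syk. A list of 20 B cell identity genes, 18 of them analysed here, had a mean relative to wild type of -0.05 ± 0.18 (SD) in pre-tumour spleens, -0.70 ± 0.87 in Sca1-Cre, -1.02 ± 1.54 in Aid-Cre and -1.11 ± 0.52 in Mb1-Cre tumours. Its lowest values were -3.16 in Aid-Cre tumour replicate 2 and -1.97 in Sca1-Cre tumour replicate 3, the same arrays as for Syk. Over the 19 arrays, Syk correlated with the list mean at Pearson r = 0.85 (permutation p adjusted over 8 genes 8e-05) and a Spearman coefficient of 0.75 (adjusted permutation p = 0.00124). Without those 2 arrays r was 0.68, and with each group centred on its own mean it was 0.83. In RNA of a whole spleen, fewer B cells and less Syk RNA in each B cell cannot be told apart, and the part of B cell content in the Syk values was not tested. Myeloid cells and platelets also use Syk, and Syk ran against the neutrophil list mean (r = -0.59, Spearman coefficient = -0.70, adjusted permutation p over 80 relations 0.0374 and 0.0084).

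The profiles most like that of Syk were those of Slc15a4, a lysosomal transporter of immune cells (r = 0.94, 0.88 without the same 2 arrays), and Snn (r = 0.93, 0.87 without them). Both were highest in Aid-Cre tumour replicate 4.

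Grb2, the adaptor that links phosphorylated receptors and scaffolds to Ras, stood higher in the Sca1-Cre than in the Mb1-Cre tumours, though no difference passed the test. The Sca1-Cre tumours had 9.35, 9.39, 9.07 and 9.69 and the pre-tumour spleens of the same genotype 9.33, 9.30 and 9.26. The Mb1-Cre tumours had 9.05, 8.90, 8.82, 8.55 and 8.92, the Aid-Cre tumours 8.72, 8.48, 9.12 and 9.05, and wild type 9.09, 9.01 and 8.75. Every Sca1-Cre tumour lay above every Mb1-Cre tumour, as in the same direction 3.37% of all genes did, and the 3 pre-tumour spleens lay above the 3 wild type spleens, as 8.35% of all genes did. The Aid-Cre tumours overlapped the Sca1-Cre tumours, through Aid-Cre replicate 3 and Sca1-Cre replicate 3.

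Grb2 means were 9.37 ± 0.25 (SD, n = 4) in Sca1-Cre tumours and 9.30 ± 0.04 (n = 3) in pre-tumour spleens, against 8.95 ± 0.18 (n = 3) in wild type, 8.84 ± 0.30 (n = 4) in Aid-Cre and 8.85 ± 0.19 (n = 5) in Mb1-Cre tumours. It had the smallest p of the set in the F-test (unadjusted p = 0.00443, limma adjusted p = 0.179). Mb1-Cre minus Sca1-Cre tumours gave -0.53 ± 0.14 (95% interval -0.82 to -0.23, limma adjusted p = 0.0991) and Aid-Cre minus Sca1-Cre tumours -0.53 ± 0.15 (limma adjusted p = 0.144). Against wild type the difference was 0.42 ± 0.16 in Sca1-Cre tumours (limma adjusted p = 0.321) and 0.35 ± 0.17 in pre-tumour spleens (limma adjusted p = 0.883), and between these HGAL groups it was 0.08 ± 0.16.

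T cell and germinal centre genes varied with Grb2 and erythroid genes ran against it. With groups centred, B cell genes varied with it more closely than these. The T cell list (12 of 15 genes measured) had means relative to wild type of 0.43 ± 0.48 (SD) in Sca1-Cre tumours and 0.61 ± 0.13 in pre-tumour spleens, against -0.55 ± 0.98 in Aid-Cre and -0.53 ± 0.60 in Mb1-Cre tumours. Over the 19 arrays Grb2 correlated with it at r = 0.74 and Spearman coefficient = 0.73 (adjusted permutation p over 80 relations 0.00366 and 0.00570), at r = 0.68 without the 2 arrays farthest from the median, and at r = 0.52 with groups centred. With the germinal centre list r was 0.63 (adjusted permutation p = 0.00048), 0.58 without the 2 farthest arrays and 0.57 with groups centred. With the erythroid list it was -0.68 (adjusted permutation p = 0.0086), -0.75 without the 2 farthest arrays and again -0.68 with groups centred. With the B cell list r was 0.60 (adjusted permutation p over 8 genes = 0.0105) and the Spearman coefficient 0.44 (adjusted permutation p = 0.0841). Without Aid-Cre tumour replicate 2 that r was 0.45 (adjusted permutation p = 0.0926), and over all 19 arrays with groups centred it was 0.76. Grb2 ran against the neutrophil list (r = -0.52, Spearman coefficient = -0.60, adjusted permutation p over 80 relations 0.102 and 0.0353). With groups centred that r was -0.735. The part of these cell types in the Grb2 values was not tested. Nek7, a kinase of the inflammasome, and Lnx2, a ubiquitin ligase, had the profiles most like that of Grb2 (r = 0.94 for each), and both were highest in the same spleen as Grb2, Sca1-Cre tumour replicate 4.

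Among the exchange factors, Arhgef1, which couples G12 and G13 receptors to RhoA in lymphocytes, lay below wild type without overlap in Mb1-Cre and Sca1-Cre tumours, though no difference passed the test. It read 9.72, 10.01 and 9.62 in wild type, 9.54, 9.42, 9.20, 8.87 and 9.09 in Mb1-Cre tumours and 9.59, 9.30, 9.14 and 9.29 in Sca1-Cre tumours. The Aid-Cre tumours split, with 9.05 and 8.70 in replicates 1 and 2 and 9.82 and 10.06 in replicates 3 and 4, and the pre-tumour spleens had 9.72, 9.44 and 9.70. A lower range without overlap was seen for 5.38% of all genes in Mb1-Cre and 5.86% in Sca1-Cre tumours. Means were 9.78 ± 0.20 (SD, n = 3) in wild type, 9.62 ± 0.15 (n = 3) in pre-tumour, 9.41 ± 0.64 (n = 4) in Aid-Cre, 9.22 ± 0.27 (n = 5) in Mb1-Cre and 9.33 ± 0.19 (n = 4) in Sca1-Cre spleens. The fitted differences were -0.56 ± 0.24 for Mb1-Cre (limma adjusted p = 0.407), -0.45 ± 0.25 for Sca1-Cre (limma adjusted p = 0.536) and -0.46 ± 0.21 for all tumours (limma adjusted p = 0.546).

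Arhgef1 tracked the B cell list over the 19 arrays (r = 0.84, Spearman coefficient = 0.87, adjusted permutation p = 8e-05 for both; the raw 1e-05 is the smallest these permutations can give). Without the 2 arrays farthest from the median r was 0.80, and with groups centred it was 0.81. Arhgef1 also correlated with the T cell list (r = 0.69, Spearman coefficient = 0.54, adjusted permutation p over 80 relations 0.0086 and 0.0535). With groups centred its r with the T cell list was 0.85, above that with the B cell list. Arhgef1 had r = -0.60 with the erythroid list (adjusted permutation p = 0.0374). It ran against the neutrophil list (r = -0.82, Spearman coefficient = -0.84, adjusted permutation p over 80 relations 0.00048 and 0.0008) and the mitosis list (r = -0.75, Spearman coefficient = -0.80, adjusted permutation p 0.00307 and 0.00173). The neutrophil list stood 2.18 ± 0.38 (SD, n = 5) above wild type in Mb1-Cre tumours, where Arhgef1 had its lowest group mean, and 0.76 ± 1.01 (n = 4) above it in Sca1-Cre tumours. The part of these cell types in the Arhgef1 values was not tested. Carmil2, an actin regulator needed for T cell costimulation, and Slc44a2, a choline transporter, were most like it (r = 0.95 for each).

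Arhgef11, or PDZ-RhoGEF, varied over a narrower range. Wild type spleens read 7.40, 7.75 and 7.43, pre-tumour spleens read 7.23, 7.65 and 7.33, and Aid-Cre tumours read 6.98, 6.90, 7.47 and 7.36. The Mb1-Cre tumours had 7.52, 7.27, 7.26, 7.12 and 7.10, and the Sca1-Cre tumours 7.49, 7.15, 6.65 and 6.89. Each group overlapped wild type, and the lowest spleen was Sca1-Cre tumour replicate 3. The difference from wild type was -0.48 ± 0.19 in Sca1-Cre tumours (95% interval -0.87 to -0.09, limma adjusted p = 0.326) and -0.37 ± 0.16 in all tumours (limma adjusted p = 0.508). Arhgef11 correlated with the B cell list at r = 0.69 (adjusted permutation p = 0.00299) and at 0.54 without the 2 arrays farthest from the median. With groups centred that r was 0.69. It ran against the mitosis list (r = -0.60, Spearman coefficient = -0.71, adjusted permutation p over 80 relations 0.0374 and 0.00832). Without the 2 arrays farthest from the median of that list r was -0.71, and with groups centred it was -0.73. The part of B cell content or of dividing cells in these values was not tested. Rreb1, a transcription factor that binds Ras-responsive elements (r = 0.90), and Klhl18 (r = 0.89) were most like it.

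Arhgef12, or LARG, had the widest spread of the 8 genes apart from Gcsam, and most of it lay within groups. The wild type spleens read 8.86, 8.68 and 9.26, and the pre-tumour spleens 7.75, 8.04 and 8.28. The Aid-Cre tumours had 9.95, 10.35, 7.78 and 8.36, the Mb1-Cre tumours 7.93, 8.90, 9.90, 10.12 and 9.59, and the Sca1-Cre tumours 8.02, 9.16, 8.87 and 8.61. The Aid-Cre and the Mb1-Cre tumours thus lay on both sides of wild type, and the Sca1-Cre tumours within its range or below it. The 3 pre-tumour spleens lay below wild type without overlap, as 8.49% of all genes did. Means were 8.93 ± 0.30 (SD, n = 3) in wild type, 8.02 ± 0.27 (n = 3) in pre-tumour, 9.11 ± 1.24 (n = 4) in Aid-Cre, 9.29 ± 0.89 (n = 5) in Mb1-Cre and 8.67 ± 0.48 (n = 4) in Sca1-Cre spleens. The SD over the 19 arrays was 0.824, above that of 97.1% of genes, and the highest spleen was 6.09-fold above the lowest. The fitted difference was -0.91 ± 0.60 for pre-tumour spleens (95% interval -2.18 to 0.35, limma adjusted p = 0.887) and 0.36 ± 0.53 for Mb1-Cre tumours (limma adjusted p = 0.828).

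Erythroid genes varied with Arhgef12. Over the 19 arrays it correlated with the mean of 8 measured erythroid genes (of 12 listed; the others were not analysed here) at r = 0.93 and Spearman coefficient = 0.98, with adjusted permutation p over 80 relations of 0.000267 and 0.0004. Without the 2 arrays farthest from the median r was 0.95, and with groups centred it was 0.92. The erythroid list mean relative to wild type ranged from -3.54 in pre-tumour replicate 1, where Arhgef12 was lowest, to 1.32 in Mb1-Cre tumour replicate 4. In the Aid-Cre tumours it was 1.00 and 1.28 in replicates 1 and 2, where Arhgef12 was high, and -2.13 and -0.86 in replicates 3 and 4, where it was low. Arhgef12 also correlated with the mitosis list (r = 0.91, Spearman coefficient = 0.93, adjusted permutation p 0.000267 and 0.0004). It ran against the T cell list (r = -0.86, Spearman coefficient = -0.82, adjusted permutation p 0.000267 and 0.0008) and the B cell list (r = -0.66, Spearman coefficient = -0.59, adjusted permutation p over 8 genes 0.00322 and 0.0188). The relations with lists other than B cell identity were computed after the data were seen, and the part of erythroid cells in the Arhgef12 values was not tested. Atp2b4, a plasma membrane calcium pump of red cells, and Cep76, a centrosomal protein, had the profiles most like it (r = 0.98 for each, and 0.97 and 0.98 without Aid-Cre tumour replicate 2 and Mb1-Cre tumour replicate 4). The promoter of Arhgef12 printed above held neither of the searched GATA motifs, which says only that these letters are not in the window.

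**Figure D3:**
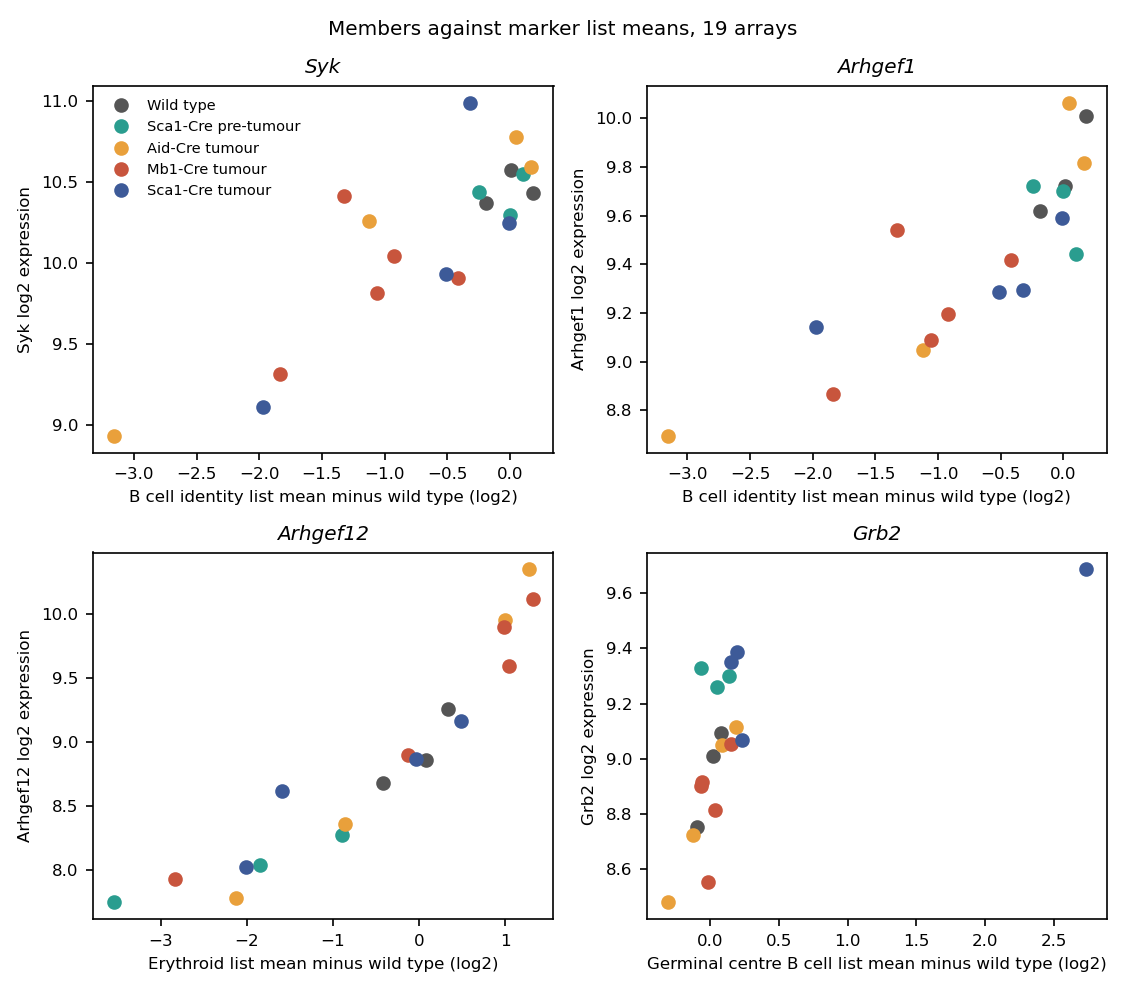
Log2 expression of Syk, Arhgef1, Arhgef12 and Grb2 (vertical axes) against the mean of a marker list relative to wild type (horizontal axes, log2), 1 point per spleen, coloured by group. Syk and Arhgef1 are low where the B cell list is low (r = 0.85 and 0.84), Arhgef12 is high where the erythroid list is high (r = 0.93), and the germinal centre list sets 1 Sca1-Cre tumour apart.

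Rhoa, the GTPase on which the exchange factors converge, stood slightly higher in every HGAL spleen than in every wild type spleen, though no difference passed the test. Wild type read 10.94, 11.00 and 10.78. The pre-tumour spleens had 11.03, 11.11 and 11.33, the Aid-Cre tumours 11.03, 11.17, 11.26 and 11.04, the Mb1-Cre tumours 11.32, 11.01, 11.10, 11.05 and 11.08, and the Sca1-Cre tumours 11.30, 11.18, 11.21 and 11.21. All 13 tumours lay above the 3 wild type spleens, as 0.243% of all genes did, and so did all 16 HGAL spleens, as 0.144% of all genes did. The gap between the lowest HGAL spleen and the highest wild type spleen was 0.0099, far below the SD of 0.11 in wild type. These spleens were Mb1-Cre tumour replicate 2 and wild type replicate 2, the arrays rich in pancreatic transcripts. There a list of exocrine pancreas genes stood 2.72 and 0.82 above the wild type mean. Within the single groups a higher range without overlap was seen for 3.75% of all genes in Aid-Cre, 4.10% in Mb1-Cre and 6.21% in Sca1-Cre tumours.

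The Rhoa differences from wild type were small: 0.24 ± 0.08 for all tumours (95% interval 0.08 to 0.41, limma adjusted p = 0.374), 0.32 ± 0.09 for Sca1-Cre tumours (limma adjusted p = 0.212), 0.22 ± 0.09 for Aid-Cre (limma adjusted p = 0.558), 0.20 ± 0.09 for Mb1-Cre (limma adjusted p = 0.412) and 0.25 ± 0.10 for pre-tumour spleens (limma adjusted p = 0.879). They kept their sign in each of the 32 alternative analyses. With a covariate for sex the value for all tumours was 0.21, and with 1 array left out at a time it ran from 0.18 to 0.29. The SD of Rhoa over all 19 arrays was 0.141, above that of 27.3% of genes. The other probe sets annotated to Rhoa were much dimmer, from 4.96 to 7.13 and from 4.74 to 5.70, and on both each tumour group overlapped wild type. On the dimmest one the pre-tumour spleens lay just above wild type (lowest 5.14 against a highest of 5.13), and on the other they overlapped it. With the B cell list r was -0.14 (adjusted permutation p = 0.563). With the germinal centre list the Spearman coefficient was 0.62 (adjusted permutation p over 80 relations = 0.0335) while r was 0.26, and r was 0.67 without Sca1-Cre tumour replicate 4 and Aid-Cre tumour replicate 2. With groups centred r was 0.048. Gnai3, a G protein subunit, and Rab2a, a GTPase of secretory traffic, were most like it (r = 0.85 for each).

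Rock1, the kinase activated by RhoA, was among the steadier genes of the array. Wild type spleens read 10.22, 10.35 and 10.29, pre-tumour spleens read 10.53, 10.67 and 10.23, and Aid-Cre tumours read 10.49, 10.47, 10.65 and 10.47. The Mb1-Cre tumours had 10.50, 10.24, 10.67, 10.49 and 10.38, and the Sca1-Cre tumours 10.27, 10.55, 10.47 and 10.50. The Aid-Cre tumours lay above wild type without overlap, as 3.75% of all genes did, and the other groups overlapped it. The fitted difference was 0.23 ± 0.11 for Aid-Cre tumours (limma adjusted p = 0.611) and 0.19 ± 0.09 for all tumours (95% interval -0.01 to 0.38, limma adjusted p = 0.577). Its SD over the 19 arrays was 0.145, above that of 29.6% of genes. With the B cell list r was -0.18 (adjusted permutation p = 0.563). Gpbp1l1 (r = 0.77) and Lce3d (r = 0.71) were most like it.

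**Figure D4:**
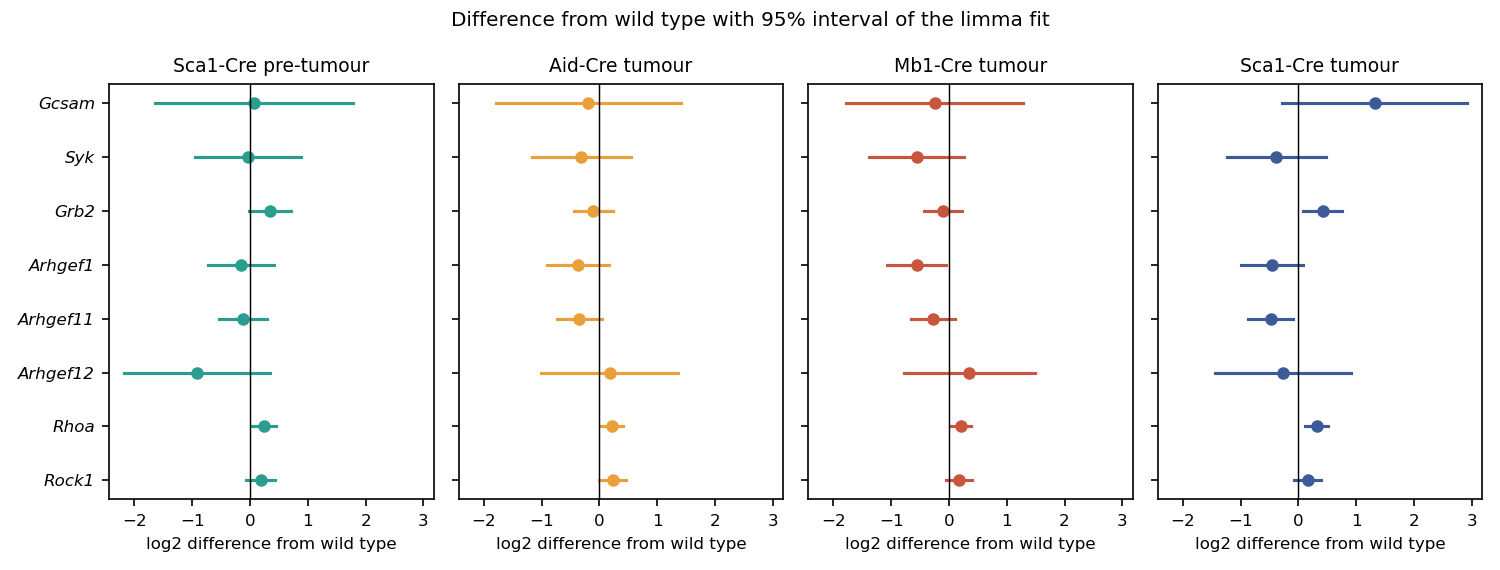
Fitted log2 difference from wild type (horizontal axes) for the 8 genes (rows) in the 4 HGAL groups (panels); points are limma estimates and bars their 95% intervals. The Rhoa intervals are narrow and lie above 0 in all 4 panels before adjustment over all genes, and those of Gcsam and Arhgef12 are the widest.

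The wider pathway was read from 5 gene lists, and limma called 0 of their measured genes in the F-test and in each of the 9 comparisons. Of 22 genes that act around Syk and Grb2, 21 were measured (Lyn was not analysed here), among them Blnk, which is also in the B cell list. Most of these were lower in tumours, with 17 of 21 lower in Aid-Cre (median difference -0.18), 16 in Mb1-Cre (-0.26) and 15 in Sca1-Cre tumours (-0.14), while in pre-tumour spleens 9 were lower (median 0.05). The median over all genes lay between -0.00 and 0.01 in these comparisons. Of all genes, 51.4% were higher than wild type in Aid-Cre, 50.1% in Mb1-Cre and 48.9% in Sca1-Cre tumours, and 52.6% in pre-tumour spleens. These shares also apply to the lists below. The B cell list moved with the Syk and Grb2 list. Of its 18 genes, 17 were lower in Aid-Cre (median difference -0.97), 17 in Mb1-Cre (-1.09) and 18 in Sca1-Cre tumours (-0.73). The lowest means of the Syk and Grb2 list were -0.59 in Mb1-Cre tumour replicate 4 and -0.56 in Aid-Cre tumour replicate 2, where the B cell list stood at -1.84 and -3.16, and the part of B cell content in these values was not tested. At an unadjusted p under 0.05 the F-test passed 3 of the 21, Gab2, Zap70 and Shc1, a share near the 15.2% of all genes. Gab2, a docking protein bound by Grb2, averaged 7.86 ± 0.10 (SD, n = 5) in Mb1-Cre tumours and 7.14 ± 0.32 (n = 3) in wild type, with limma adjusted p = 0.429. Zap70, the T cell relative of Syk and also a gene of the T cell list, averaged 8.20 ± 0.66 (n = 4) in Sca1-Cre and 7.27 ± 0.49 (n = 5) in Mb1-Cre tumours. Shc1, an adaptor that recruits Grb2 to receptors, averaged 8.05 ± 0.12 (n = 3) in pre-tumour spleens and 8.37 ± 0.08 in wild type. Lat2, a membrane adaptor of B cells and mast cells, averaged 8.08 ± 0.33 in Mb1-Cre tumours and 8.87 ± 0.17 in wild type (limma adjusted p = 0.296).

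Upstream of RhoA, 7 of 9 receptors and G proteins were measured (Lpar5 and Lpar6 were not analysed here), and 4 of the 7 had an unadjusted F-test p under 0.05, against 15.2% of all genes. Against wild type, 3 of the 7 stood higher in Aid-Cre, 4 in Mb1-Cre and 5 in Sca1-Cre tumours, and 5 in pre-tumour spleens. F2r, the thrombin receptor, averaged 8.73 ± 0.23 (SD, n = 3) in pre-tumour spleens and 7.77 ± 0.21 (n = 3) in wild type, a difference of 0.96 with limma adjusted p = 0.837. S1pr2 averaged 7.97 in Sca1-Cre tumours and 6.97 in wild type, and its value of 9.37 in Sca1-Cre tumour replicate 4 is the one given with the germinal centre list. Gnaq, a G protein subunit that also acts through Arhgef12, averaged 8.02 ± 0.20 in Mb1-Cre tumours and 7.75 ± 0.03 in wild type (limma adjusted p = 0.391). Tbxa2r, the thromboxane receptor, averaged 6.34 ± 0.20 in Mb1-Cre tumours and 6.74 ± 0.26 in wild type (limma adjusted p = 0.435).

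Of 10 other exchange factors for RhoA and its relatives 9 were measured (Arhgef28 was not analysed here), with 5 lower in each tumour group against wild type, and the F-test passed 2 of the 9 at an unadjusted p under 0.05 (15.2% of all genes). Akap13, an anchoring protein with exchange activity, averaged 10.21 ± 0.09 (SD, n = 4) in Aid-Cre tumours, 0.21 above the wild type mean (limma adjusted p = 0.578). Arhgef3, an exchange factor for RhoA and RhoB, averaged 10.13 ± 0.24 in pre-tumour spleens, 9.51 ± 0.50 in wild type and 9.07 in both Aid-Cre and Mb1-Cre tumours. Arhgef10 averaged 6.41 ± 0.19 in Aid-Cre tumours, and wild type had 6.08 ± 0.09 (limma adjusted p = 0.438), and Plekhg5 5.47 ± 0.13 in Sca1-Cre tumours and 5.68 ± 0.06 in wild type (limma adjusted p = 0.349). Of 11 relatives and inhibitors of RhoA, 10 were measured (Arhgdia was not analysed here), of which 5 stood higher than wild type in Aid-Cre, 7 in Mb1-Cre and 3 in Sca1-Cre tumours. The F-test passed 3 of the 10 at an unadjusted p under 0.05. Dlc1, a GTPase-activating protein for RhoA, averaged 5.84 ± 0.36 in Mb1-Cre tumours and 5.42 ± 0.15 in wild type (limma adjusted p = 0.347). Arhgap5, another GTPase-activating protein, averaged 6.95 ± 0.41 in Sca1-Cre and 6.20 ± 0.57 in Aid-Cre tumours, with 6.55 ± 0.33 in wild type. Rhoc, a close relative of Rhoa, averaged 4.97 ± 0.19 (n = 5) in Mb1-Cre tumours and 4.49 ± 0.12 (n = 3) in wild type, both near background, and Arhgap35, a RhoA GTPase-activating protein, averaged 6.75 ± 0.27 in Mb1-Cre tumours and 7.26 ± 0.09 in wild type (limma adjusted p = 0.296).

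Downstream, 16 of 18 RhoA and ROCK effectors were analysed here. Against wild type, 9 of 16 were lower in Aid-Cre, 7 in Mb1-Cre and 7 in Sca1-Cre tumours, and their median differences were -0.02, 0.10 and 0.03. The F-test passed 2 of the 16, Myl12b and Rtkn2, at an unadjusted p under 0.05, a share below the 15.2% of all genes. Rtkn2 averaged 5.11 ± 0.07 in Mb1-Cre tumours and 4.89 ± 0.15 in wild type (limma adjusted p = 0.295), both near background. Myl12b, a regulatory light chain of non-muscle myosin, averaged 10.03 ± 0.26 (SD, n = 4) in Aid-Cre tumours and 10.37 ± 0.19 (n = 3) in wild type (limma adjusted p = 0.526). Pkn2, a RhoA-activated kinase, averaged 9.73 ± 0.39 in Aid-Cre tumours against 9.33 ± 0.10 in wild type (limma adjusted p = 0.665), and Cfl1, the actin-severing protein kept inactive downstream of ROCK, averaged 10.12 ± 0.03 in the first of these groups and 10.33 ± 0.17 in the second (limma adjusted p = 0.585).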

How the data were processed

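Total RNA from whole spleens was extracted with Trizol, labelled with biotin and hybridised, per the labels' protocols. RMA and the package oligo are named by the submitters' processing notes, with versions not given in the sources used here. What the authors deposited is a log2 value for each probe set, used here without further scaling. Of 41345 probe sets, 23521 had 1 gene symbol, 1814 several and 16010 none. For the 1082 genes with several probe sets the brightest stood for the gene, which left 22180 genes with no filter on dim ones.

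Arrays were grouped by title, which also names them biological replicates. With limma 3.58.1 in R 4.3.3, group means were fitted to all 19 arrays at once (14 residual and 2.46 prior degrees of freedom), which gave 9 contrasts and the F-test, two-sided, with Benjamini-Hochberg adjustment over all genes; it was tested on simulated data. Relations with marker list means used two-sided permutation tests with 100000 resamples in SciPy 1.17.1. The named genes are the 9 genes, the measured germinal centre markers, up to 4 genes of each pathway list with the smallest F-test p, the 5 genes most correlated with Gcsam and the 2 most correlated with each other measured gene. Genes and lists were chosen with earlier results of these data known. Alternatives were 3 further normalizations, 2 filters on dim genes, the mean of probe sets, every probe set, only the compared groups, variance trend with robust settings, array weights, the replicate number as a block, a sex covariate, both arrays rich in pancreatic transcripts left out, and each array left out.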

Additional observations from a re-analysis of the deposited data

Results flagged for a closer look

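In the Sca1-Cre tumours Gcsam stood at 10.41 in replicate 4, far from the other 3 spleens of the group, which read 5.74 to 6.38. In the Aid-Cre tumours Rock1 stood at 10.65 in replicate 3, while the other 3 spleens read 10.47 to 10.49. For the 8 genes, 24 groups of 4 or 5 arrays were examined in this way, and chance alone sets apart about 5% of groups.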

How the results depend on the processing

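None of the 8 genes was called by limma in any of 32 alternative analyses, 19 of which left out 1 array; the lowest adjusted p was 0.0561, for Grb2 between Mb1-Cre and Sca1-Cre tumours without Sca1-Cre tumour replicate 3. Of 1536 recomputed values of 48 differences, 21 in 11 differences changed sign, none of them for Arhgef1, Arhgef11 or Rhoa. These 48 cover the comparisons against wild type and Sca1-Cre tumours against pre-tumour spleens. Signs in the comparisons between tumour groups were not followed. Gcsam became 0.46 in Aid-Cre tumours with the sex covariate and -0.12 in all tumours with the replicate block, Syk became 0.10 in pre-tumour spleens with the sex covariate, and Arhgef12 became -0.0071 in all tumours without both pancreatic arrays, each against wild type. With 1 array left out, the ranges that crossed 0 against wild type were -0.13 to 0.19 for Gcsam in pre-tumour spleens (negative without wild type replicate 3 or pre-tumour replicate 3), -0.0734 to 0.45 for Gcsam in all tumours (negative without Sca1-Cre tumour replicate 4), -0.53 to 0.083 for Syk and -0.21 to 0.0119 for Grb2 in Aid-Cre tumours (positive without Aid-Cre tumour replicate 2), -0.0906 to 0.0357 for Syk in pre-tumour spleens (positive without pre-tumour replicate 3 or wild type replicate 1), -0.0295 to 0.14 for Grb2 in all tumours (negative without wild type replicate 3), -0.24 to 0.62 for Arhgef12 in Aid-Cre tumours (negative without Aid-Cre tumour replicate 1 or 2) and -0.0501 to 0.25 for Arhgef12 in all tumours (negative without either of these or wild type replicate 2). For Sca1-Cre tumours against pre-tumour spleens they were -0.0285 to 0.18 for Grb2 (negative without Sca1-Cre tumour replicate 4) and -0.15 to 0.0686 for Rock1 (positive without Sca1-Cre tumour replicate 1 or pre-tumour replicate 1 or 2). With 1 array left out, Grb2 correlated with the B cell list at r = 0.45 to 0.68, and r = 0.45 (adjusted permutation p = 0.0926) was the value without Aid-Cre tumour replicate 2. The causes were not tested.

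The count of genes called over the whole array moved more, from 0 to 99 for Sca1-Cre tumours and from 0 to 61 for Mb1-Cre tumours against wild type. It ran from 0 to 229 for Aid-Cre against Sca1-Cre tumours (10 with all arrays) and from 0 to 121 for Mb1-Cre against Sca1-Cre tumours (9 with all arrays), with both highest counts reached without Aid-Cre tumour replicate 3, so the share of all genes called depends on the setting. Deviations from the group mean correlated at a median r of -0.05 between same-numbered arrays of different groups (from -0.53 to 0.41 over 33 pairs). Between differently numbered arrays the median was 0.01 (from -0.67 to 0.61 over 110 pairs). These values show no excess likeness of same-numbered arrays, but whether some mice were paired cannot be told from them. With the replicate number as a block limma called 0 of the 8 genes, as it did without the block. In groups of 3 to 5 arrays, intervals were widest for Gcsam and Arhgef12, whose SD within groups was 1.07 and 0.791, against 0.112 for Rhoa. The Gcsam value includes the spleen at 10.41. Dim genes near the edge of background give differences that are not exact.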
